A study of Sus scrofa with 4 samples.

Results

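Regulatory T cells of regenerated pig bone were taken from droplet single-cell RNA libraries by the transcripts each barcode held. A barcode was kept with at least 200 detected genes and under 20% of its UMIs (unique molecular identifiers, one for each captured transcript) in 13 mitochondrial genes. A kept cell counted as a regulatory T cell with at least 2 UMIs summed over CD3D, CD3E and CD3G, at least 1 UMI of FOXP3, at least 1 UMI of CTLA4 or IL2RA, and none of CD79B, MS4A1 or CSF1R, which mark B cells and macrophages. The gate held 526 cells, 1.03% of the 50935 kept cells and 4.39% of the 11987 T cells (cells with the same CD3 minimum and without those 3 barred genes). The cells were thus chosen by the UMI counts of FOXP3, CTLA4, IL2RA and the CD3 and barred genes, so the levels of these genes are described and not tested.

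Libraries came from regenerated bone of Bama mini-pigs, a miniature breed, at 8 months of age. A peptide named 1797 was compared with a control peptide in 2 libraries each, and no group without a peptide was analysed here. Every library was made from bone digested with collagenase followed by lysis of red cells, so each group shares that handling. Whether a group's libraries stem from different animals is not given in the labels, and p-values therefore measure only the spread between these libraries, which may be technical.

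Regulatory T cells are the branch of the T cell lineage that restrains other immune cells, and FOXP3 is the transcription factor that sets up and holds their programme. They take up IL-2 through a receptor with the alpha chain IL2RA and carry CTLA4, which competes with CD28 for the costimulatory ligands on antigen-presenting cells. In bone they are known to act on osteoclast formation and on the repair of injured tissue.

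The gate held 119 and 126 cells in libraries 1 and 2 of the 1797 group and 172 and 109 cells in libraries 1 and 2 of the control group. Their median depth was 8129 and 8546 UMIs per cell with 1797 and 8013 and 9181 with the control peptide, and the summed UMIs ran from 1175653 to 1699375 per library. FOXP3-negative CD4 T cells served as the comparator: T cells with at least 1 UMI of CD4 and none of FOXP3 or CD8B, 1667 in all, with median depths of 8047 to 8906 UMIs. Pairs of libraries shared 42 to 63 barcodes, and 0 barcodes were regulatory T cells in both libraries of a pair. Scrublet called 24 of the 526 cells doublets (4.56%), against 3.52% of all kept cells.

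FOXP3 (chromosome X, 43303777 to 43328164 on Sscrofa11.1) was read with more than 1 UMI in most of these cells. A single FOXP3 UMI was found in 126 cells, 2 in 65 cells and 3 or more in 335 cells. The median was 4 and 4.5 UMIs per cell with 1797 and 4 and 3 with the control peptide, and the highest count in a cell was 30. Scaled to the summed UMIs of the gated cells, FOXP3 stood at 481 and 592 CPM (UMIs of the gene per 1000000 summed UMIs) with 1797 and at 617 and 480 CPM with the control peptide. The groups overlapped.

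FOXP3 UMIs were also found in cells that were not T cells. A FOXP3 UMI was found in 7.59% to 9.20% of the T cells of a library and in 2.16% to 3.65% of B cells (CD79B and MS4A1 present, CD3 absent). The shares were 1.99% to 2.37% of macrophages (CSF1R with C1Q or CD14, CD3 absent) and 0.192% to 0.660% of neutrophils. B cells were deeper than T cells, with medians of 9537 to 12158 UMIs against 6913.5 to 7874. Macrophages had medians of 12160 to 20165.5 UMIs and neutrophils of 1673 to 2255. After each cell was thinned to 2000 UMIs, the shares were 4.24% to 5.00% of T cells and 0.270% to 1.07% of B cells, both below the unthinned ones. Among macrophages and neutrophils of at least 2000 UMIs the thinned shares were 0% to 0.728% and 0.193% to 0.674%. FOXP3 together with CTLA4 or IL2RA was found in 0% to 1.22% of B cells, unthinned. Whether the UMIs outside T cells came from free RNA, doublets or the cells themselves was not tested.

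The other genes of the gate are given with their levels, which the gate itself sets for CTLA4 and IL2RA. CTLA4 (chromosome 15, 107283081 to 107288041) was at 105 and 117 CPM with 1797 and 119 and 74.7 CPM with the control peptide, against 7.37 to 26.4 CPM in the comparator. IL2RA (chromosome 10, 64948149 to 65001320) was at 732 and 891 CPM with 1797 and 511 and 851 CPM with the control peptide, against 73.8 to 135 CPM in the comparator. CD3E (chromosome 9, 45619730 to 45633972), a subunit of the T cell receptor complex, was at 522 to 740 CPM in the gated cells and 529 to 620 CPM in the comparator. CD4 itself was seen in 68.1% and 55.6% of the gated cells of the 1797 libraries and in 63.4% and 56.0% of those of the control libraries, so 205 cells had no CD4 UMI. FOXP3 stood at 524 ± 70.5 CPM (SD, n = 4) in the cells without CD4 and at 544 ± 76.8 CPM in those with CD4 and no CD8B.

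Cells on both sides of the gate were compared as a description. Just inside were the 126 cells with 1 FOXP3 UMI. Just outside were 506 T cells with FOXP3 but neither CTLA4 nor IL2RA, 2171 T cells with CTLA4 or IL2RA but no FOXP3, 86 cells short of the CD3 minimum and 74 cells barred by a B cell or macrophage gene. IKZF4, an Ikaros family factor known as Eos that works with FOXP3 in gene repression, averaged 192 ± 54.7 CPM (SD, n = 4 libraries) in gated cells with 2 or more FOXP3 UMIs and 36.6 ± 28.4 CPM in those with 1. It averaged 27.5 ± 24.2 CPM in T cells with FOXP3 alone and 7.46 ± 1.96 CPM in T cells with CTLA4 or IL2RA alone. IKZF2, the related factor Helios, ran otherwise. It averaged 624 ± 217 CPM in T cells with FOXP3 alone and 756 ± 191 CPM in gated cells with 2 or more FOXP3 UMIs, with overlapping libraries.

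**Figure D1:**
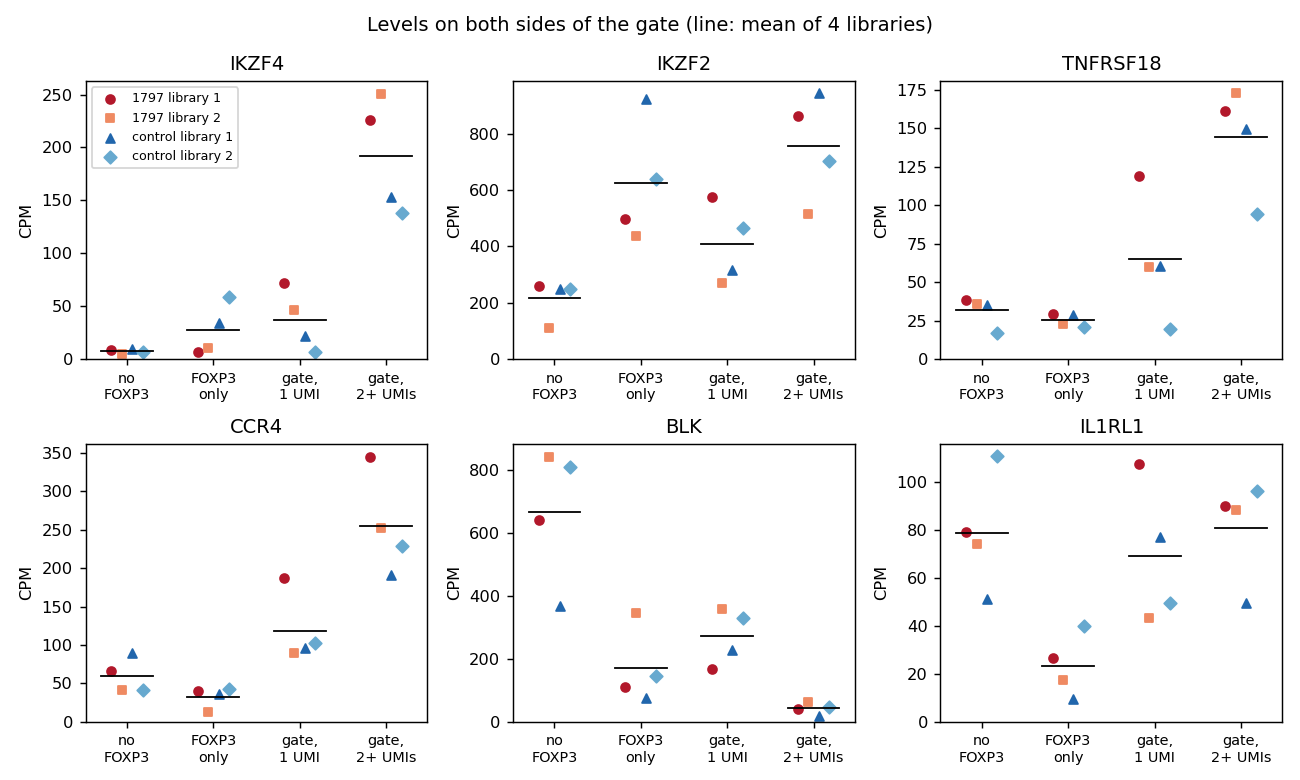
CPM of 6 genes in each of the 4 libraries (points) and their mean (line), in T cells with CTLA4 or IL2RA but no FOXP3, T cells with FOXP3 but no CTLA4 or IL2RA, gated cells with 1 FOXP3 UMI and gated cells with 2 or more. IKZF4, TNFRSF18 and CCR4 have their highest mean in gated cells with 2 or more FOXP3 UMIs, IKZF2 is also high in cells with FOXP3 alone, BLK is high where FOXP3 is absent or at 1 UMI, and IL1RL1 is alike with and without FOXP3 where CTLA4 or IL2RA is present.

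Among the gated cells, those with little FOXP3 carried more of a kinase gene of gamma-delta T cells. BLK, a Src family kinase expressed in B cells and in some gamma-delta T cells, averaged 271 ± 88.8 CPM in gated cells with 1 FOXP3 UMI and 42.0 ± 19.2 CPM in those with 2 or more. It averaged 205 ± 77.6 CPM in gated cells without CD4 and 37.3 ± 8.71 CPM in those with CD4 and no CD8B. In T cells with CTLA4 or IL2RA but no FOXP3 it averaged 664 ± 216 CPM. The 5 gamma-delta T cell markers in the files summed to 394 and 380 CPM in the gated cells of the 1797 libraries and to 344 and 351 CPM in those of the control libraries, against 193 to 259 CPM in the comparator, and their part in the differences below was not tested.

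The first question was whether the peptide went with a different number of these cells. Regulatory T cells made up 0.949% and 0.959% of the kept cells with 1797 and 1.28% and 0.919% with the control peptide. The exact 95% binomial intervals were 0.787% to 1.14% and 0.799% to 1.14% with 1797, and 1.10% to 1.49% and 0.756% to 1.11% with the control peptide. Control library 1 was the highest, and the 1797 libraries lay between the 2 control libraries. The means were 0.954% ± 0.00645 (SD, n = 2) and 1.10% ± 0.257 (SD, n = 2), and an exact two-sided permutation test gave p = 1, where the smallest p of the design is 0.33. Of the T cells they made up 4.43% and 4.86% with 1797 and 4.11% and 4.32% with the control peptide. Both 1797 libraries were above both control libraries there (4.64% ± 0.303 against 4.22% ± 0.146, SD, n = 2 each, exact permutation p = 0.33), and the direction was the opposite of that over all kept cells. Of CD4 T cells, the gated cells with CD4 and no CD8B made up 17.9% and 15.9% with 1797 and 14.3% and 16.5% with the control peptide, with the groups overlapping (exact permutation p = 0.667). Without control library 1 the difference over kept cells, 1797 minus control, turned from -0.147 to 0.0345 percentage points. T cells with FOXP3, with no demand for CTLA4 or IL2RA, made up 1.63% and 1.70% of the kept cells with 1797 and 2.78% and 1.96% with the control peptide. Both 1797 libraries were below both control libraries there, a difference of -0.701 percentage points (exact permutation p = 0.33). With 2 libraries a group no outcome could pass a threshold of 0.05, and the direction turned with the denominator.

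**Figure D2:**
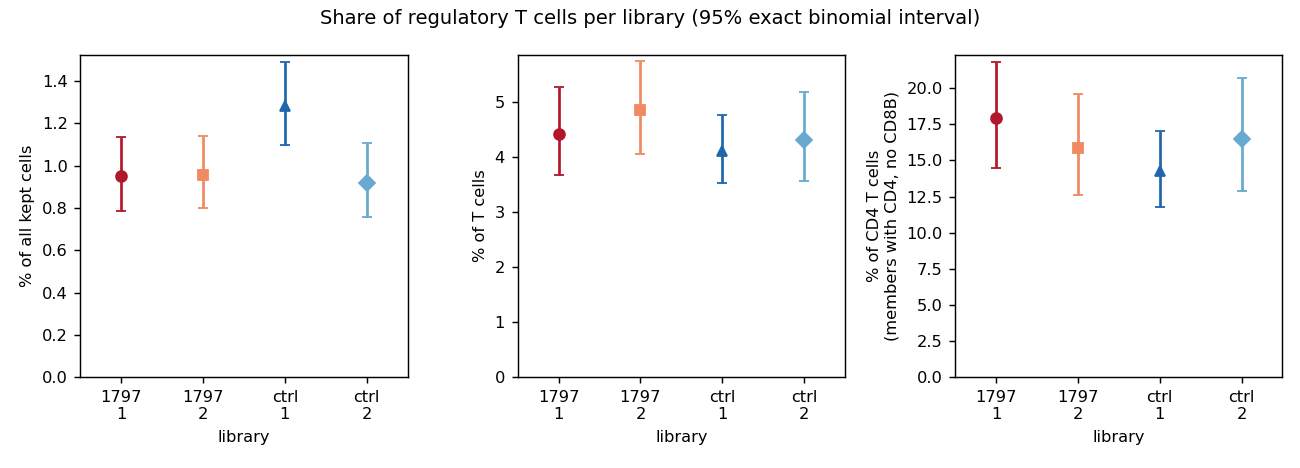
Share of regulatory T cells in each library (x axis) as a percent of all kept cells, of T cells and of CD4 T cells (y axes), with 95% exact binomial intervals that cover counting error only. Control library 1 is highest over kept cells at 1.28% and lowest over T cells at 4.11%.

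The second question was what these cells share beyond the genes that chose them. Summed counts of gated and comparator cells were compared within the 4 libraries. Of 9527 genes tested, 833 were called at an adjusted p under 0.05 (8.74%), with 475 higher (4.99%) and 358 lower (3.76%) in regulatory T cells, by edgeR's quasi-likelihood test with Benjamini-Hochberg adjustment and the library as a block. The median log2 difference over all tested genes was -0.00338. Counts of called list members below stand against these shares of 4.99% higher and 3.76% lower. The demand for CTLA4 or IL2RA applied to the gated cells and not to the comparator, so genes of T cell activation could follow from the gate. For that reason T cells with CTLA4 or IL2RA but no FOXP3 were also used as a comparator, and directions that turned are given beside the gene. That set, like the set of all FOXP3-negative T cells, had no demand on CD4 or CD8B. The main comparator demanded CD4, while 205 of the 526 gated cells had no CD4 UMI. Activation and the mix of T cell types thus change together between the comparators, and their parts in a turned direction cannot be told apart. The count of calls was 501 without 1797 library 1 and 387 without control library 1. Of 67 called genes followed by name, 51 stayed called whichever library was left out, with 11 and 12 lost without 1797 library 1 or 2 and 14 and 6 without control library 1 or 2. Those lost in at least 1 of these fits included TNFRSF4, LRRC32, CCR7, GZMK, TNF, TNFSF10, TNFSF11, PFKFB3, BLK and SOX13.

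The transcription factor gene IKZF4 had the smallest p of all tested genes. IKZF4 (chromosome 5, 21399858 to 21427648) stood at 193 and 201 CPM in regulatory T cells of the 1797 libraries and at 125 and 107 CPM in those of the control libraries. The comparator held 2.25 to 4.34 CPM, so no library overlapped, and the log2 difference was 5.34 ± 0.17 (SE, edgeR adjusted p = 4.45e-07). A UMI of IKZF4 was found in 32.1% to 40.5% of the regulatory T cells of a library and in 1.94% to 2.49% of the comparator cells, at like depths. IKZF2 stood at 802, 454, 811 and 645 CPM in the regulatory T cells (libraries 1 and 2 of 1797, then of control) against 89.6 to 263 CPM in the comparator, a log2 difference of 1.85 ± 0.15 (edgeR adjusted p = 1.25e-04). PRDM1, the factor Blimp-1 of effector regulatory T cells, was higher by 2.48 ± 0.14 on the log2 scale, and BATF, an AP-1 family factor of effector T cells, by 1.91 ± 0.29. GATA3, the factor of type 2 helper cells that is also used by regulatory T cells in tissues, was higher by 0.88 ± 0.11. SATB1, a chromatin organiser that FOXP3 is known to repress, was lower at 343 to 550 CPM against 725 to 1238 CPM (-1.07 ± 0.08, edgeR adjusted p = 1.29e-04). Of the 20 tested members of the list of regulatory T cell transcription factors, 10 rose and 2 fell, with a median log2 difference of 0.46.

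**Figure D3:**
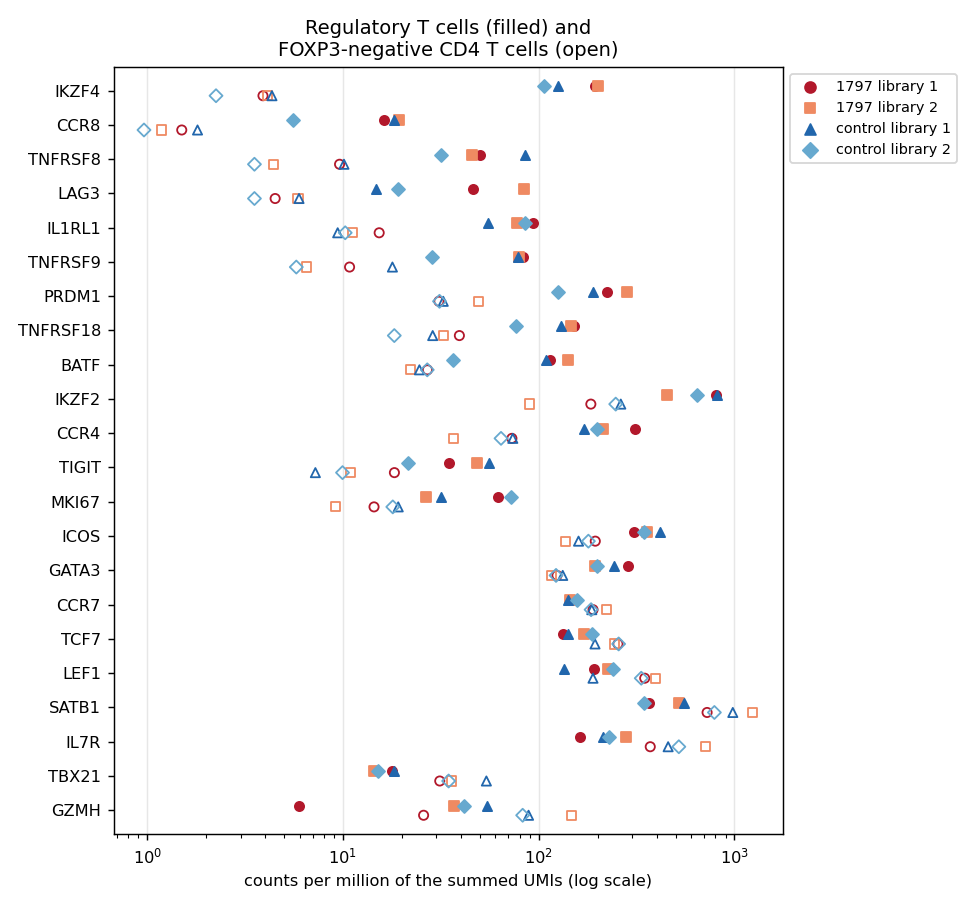
CPM (log x axis) of 22 genes in each library, in regulatory T cells (filled) and FOXP3-negative CD4 T cells (open). From IKZF4 down to GATA3 the filled points lie to the right of the open point of the same library, and from CCR7 down to GZMH they lie to its left.

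Several receptors of the TNF receptor family were among the calls. TNFRSF18, the costimulatory receptor GITR, stood at 152 and 146 CPM in regulatory T cells of the 1797 libraries and at 131 and 76.3 CPM in those of the control libraries, against 18.3 to 39.3 CPM in the comparator. All 4 libraries were above every comparator value, and the log2 difference was 2.09 ± 0.11 (edgeR adjusted p = 2.05e-05). TNFRSF8, known as CD30, was higher by 2.96 ± 0.21, and TNFRSF4, known as OX40, by 0.78 ± 0.20 (edgeR adjusted p = 0.0412), a call lost without 1797 library 2 and without either control library. TNFRSF9, known as 4-1BB and induced by T cell activation, was higher by 2.71 ± 0.24, but against T cells with CTLA4 or IL2RA and no FOXP3 the difference was -0.00645. ICOS, a costimulatory relative of CD28, was higher by 1.09 ± 0.12. Of 11 tested members of the list of costimulatory receptors and their partners 7 rose and 1 fell, with a median of 0.68. The 7 were TNFRSF18, TNFRSF8, TNFRSF4, TNFRSF9, TNFRSF1B, ICOS and CD28, the last 2 of which are not TNF receptors, and the ligand gene CD40LG fell.

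A UMI of TNFRSF4, TNFRSF9 or TNFRSF18 was found in 73.1% and 65.1% of the regulatory T cells of the 1797 libraries and in 71.5% and 57.8% of those of the control libraries. In the comparator the shares were 64.1% and 44.2% with 1797 and 49.6% and 47.9% with the control peptide. In every library the regulatory T cells had the higher share, and with cells thinned to 2000 UMIs the shares were 27.8% to 44.8% against 14.4% to 32.7%.

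Receptors that damp T cell responses were fewer among the calls. TIGIT, an inhibitory receptor of regulatory and exhausted T cells, stood at 34.9, 48.2, 55.9 and 21.5 CPM against 7.23 to 18.3 CPM in the comparator, a log2 difference of 1.83 ± 0.32 (edgeR adjusted p = 0.00765). LAG3, an inhibitory receptor that binds MHC class II, was higher by 2.77 ± 0.38, with 45.9 and 84.4 CPM with 1797 and 14.7 and 19.1 CPM with the control peptide against 3.53 to 5.96 CPM. CD5, which tunes T cell receptor signals, was lower, at -0.58 ± 0.11, but higher by 0.47 against T cells with CTLA4 or IL2RA and no FOXP3, and by 0.37 against all FOXP3-negative T cells. Of 7 tested members 2 rose and 1 fell.

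Secreted and surface effectors of suppression did not rise as a group. LRRC32, the protein GARP that holds latent TGF-beta on the cell surface, was at 5.30 to 14.5 CPM against 0 to 3.30 CPM (2.62 ± 0.69, edgeR adjusted p = 0.0453). IL10, an anti-inflammatory cytokine, was at 20.4 and 33.0 CPM with 1797 and 12.9 and 2.38 CPM with the control peptide, against 4.49 to 9.73 CPM (1.32 ± 0.38, edgeR adjusted p = 0.0592). It was higher in 3 of the 4 libraries and did not pass the test. TGFB1 was at 824 to 1007 CPM against 933 to 1034 CPM (-0.09 ± 0.06, edgeR adjusted p = 0.418). FGL2, a secreted fibrinogen-like protein, and NRP1, a co-receptor used as a mark of thymus-derived regulatory T cells in mice, were lower, at -1.92 ± 0.31 and -1.47 ± 0.27. Of 10 tested members 1 rose and 2 fell, with a median of -0.08.

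Cytokine receptors split by family member. IL1RL1, the receptor ST2 for the alarmin IL-33, stood at 93.6, 77.2, 55.3 and 85.1 CPM against 9.40 to 15.3 CPM, a log2 difference of 2.73 ± 0.15 (edgeR adjusted p = 2.05e-05). Against T cells with CTLA4 or IL2RA but no FOXP3 it was -0.02, so IL1RL1 parted the gated cells from CD4 T cells at large and not from that other set. IL7R, the alpha chain of the IL-7 receptor and low on regulatory T cells in other species, was at 163, 279, 212 and 227 CPM against 371 to 712 CPM (-1.22 ± 0.08, edgeR adjusted p = 3.48e-05). IL21R and IL2RB were higher by 1.33 ± 0.12 and 0.62 ± 0.10. Of 13 tested members of the list of IL-2 and common gamma chain signalling, 3 rose and 1 fell.

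Of 23 tested homing genes 3 rose (CCR4, CCR8 and CXCR6) and 1 fell (CCR7), with a median of 0.017, while 0 of 10 tested naive genes rose and 6 fell, with a median of -0.49. The CXCR6 call was lost without either 1797 library and without control library 1. CCR4, a chemokine receptor for CCL17 and CCL22, was at 311 and 213 CPM with 1797 and 171 and 198 CPM with the control peptide, against 36.5 to 73.7 CPM (1.84 ± 0.19, edgeR adjusted p = 5.52e-04). CCR8, a receptor of tissue regulatory T cells, was at 5.56 to 19.3 CPM against 0.963 to 1.81 CPM (3.37 ± 0.35). CCR7, which guides T cells to lymph nodes, was lower, at -0.40 ± 0.09, but higher by 0.31 against T cells with CTLA4 or IL2RA and no FOXP3 and by 0.38 against all FOXP3-negative T cells. LEF1 and TCF7, paired factors of naive and memory T cells, were lower, at -0.66 ± 0.09 and -0.59 ± 0.10. Over all settings of the fit LEF1 ran from -1.03 to -0.0139 and TCF7 from -0.749 to -0.486. SATB1, CCR7 and IL7R each stand in 2 of these lists.

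Helper and cytotoxic genes were lower where they were called, apart from BCL6. TBX21, the factor T-bet of type 1 helper cells, was at 14.5 to 18.2 CPM against 31.2 to 54.0 CPM (-1.24 ± 0.18), and TNF was lower, at -1.17 ± 0.24. Over all settings of the fit TBX21 ran from -1.86 to -0.190 and TNF from -1.69 to -0.106. IFNG, the type 1 cytokine, was at 0.851 to 4.77 CPM against 5.96 to 13.2 CPM and did not pass the test (-1.58 ± 0.44, edgeR adjusted p = 0.0545). BCL6, the repressor of follicular T cells, was higher by 0.85 ± 0.13. The granzyme genes GZMH and GZMK, proteases of killer lymphocytes, were lower, at -1.31 ± 0.22 and -1.71 ± 0.43. Of 6 tested helper genes 1 rose and 2 fell, and of 11 tested cytotoxic genes 0 rose and 2 fell.

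Of 16 tested cell cycle genes all 16 had positive differences, 10 passed the test, and the median was 0.87. MKI67, a protein of cycling cells, stood at 62.1, 26.5, 31.8 and 72.3 CPM against 9.14 to 19.2 CPM (1.58 ± 0.24, edgeR adjusted p = 0.00381). MCM6 and RRM2, which act in DNA replication and in the supply of nucleotides, were higher by 0.89 ± 0.14 and 0.99 ± 0.18. A UMI of MKI67 or TOP2A was found in 20.2% and 15.1% of the regulatory T cells of the 1797 libraries and in 20.9% and 26.6% of those of the control libraries, against 12.4%, 19.1%, 13.8% and 20.7% of the comparator. The share was lower than in the comparator in library 2 of the 1797 group, unlike the CPM of MKI67, so no order was read from it.

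NF-kB targets rose in 6 of 15 tested members and fell in 1, with TNF as the one that fell. NFKBIZ, an atypical I-kappa-B protein, was at 379, 580, 380 and 248 CPM against 171 to 209 CPM (1.02 ± 0.13, edgeR adjusted p = 0.00172). BIRC3 and TNFAIP3, which act in survival and in feedback downstream of TNF receptors, were higher by 0.56 ± 0.09 and 0.50 ± 0.09. Of 21 tested genes of glycolysis and hypoxia 3 rose and 1 fell, with ENO1 higher by 0.61 ± 0.09 and PFKFB3 lower, at -0.29 ± 0.07. Of 28 tested interferon response genes 2 rose and 2 fell, where 4.99% of all tested genes rose and 3.76% fell. MHC class II genes had 0 of 9 called in either direction.

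**Figure D4:**
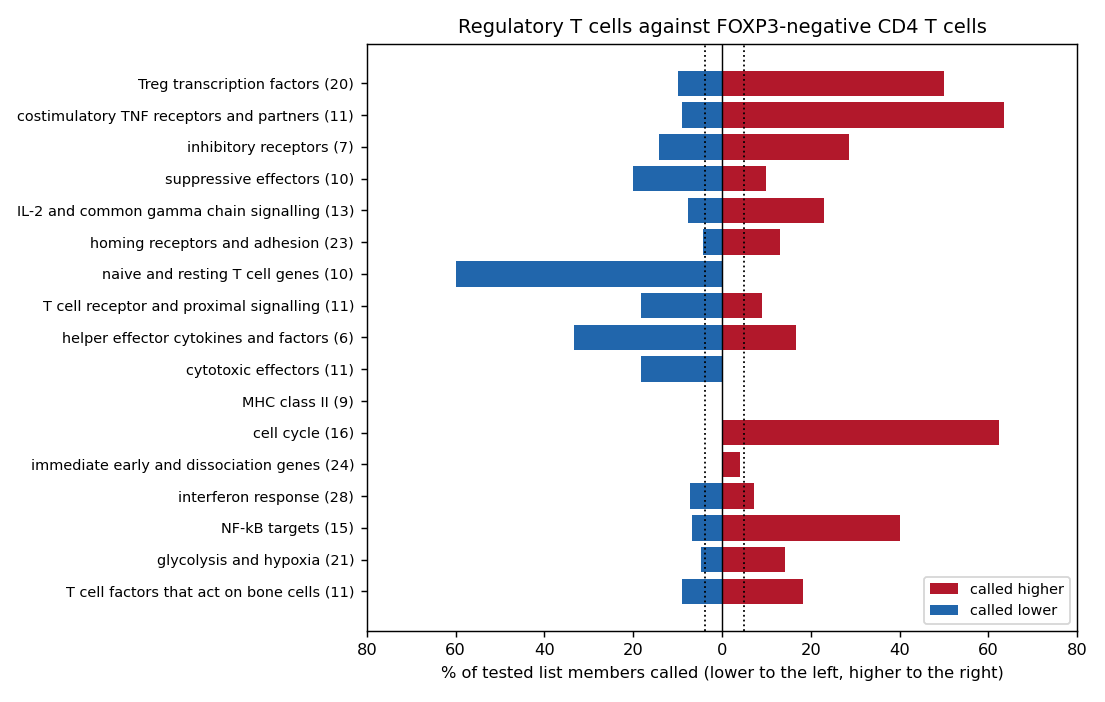
Percent of the tested members of 17 gene lists (number tested in brackets) called higher (right) or lower (left) in regulatory T cells than in FOXP3-negative CD4 T cells at an adjusted p under 0.05. Dotted lines give the percent over all tested genes, 4.99 higher and 3.76 lower. The bars for costimulatory receptors, cell cycle and transcription factors reach farthest to the right and that for naive genes farthest to the left.

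The 16 listed factors through which T cells act on bone cells summed to 1166 to 1505 CPM in regulatory T cells and 1218 to 1545 CPM in the comparator. Most of each sum was TGFB1, described above, so the sums say little about the other members. TNFSF11, the osteoclast differentiation factor RANKL, was at 42.5 and 14.5 CPM with 1797 and 20.6 and 9.54 CPM with the control peptide, against 3.07 to 22.5 CPM (1.31 ± 0.35, edgeR adjusted p = 0.0497). The value ranges overlapped, though each library was higher than its own comparator. The highest comparator value, that of 1797 library 1, had 56 of its 75 UMIs in 1 cell. With the richest cell of each gene left out, TNFSF11 was at 7.15 to 34.0 CPM against 2.17 to 5.78 CPM, without overlap (2.00 ± 0.40, edgeR adjusted p = 0.00552). Against T cells with CTLA4 or IL2RA and no FOXP3 the difference was -0.42. TNFSF10, the death ligand TRAIL, was higher by 0.90 ± 0.21. CCL5, a chemokine for T cells and monocytes, was at 146, 155, 440 and 138 CPM against 153 to 406 CPM and did not pass the test (-0.56 ± 0.22, edgeR adjusted p = 0.154). Of 11 tested members 2 rose and 1 fell, the last being TNF.

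By the size of the evidence, RHOH, CCDC22, C7H14orf132, ATP1B1 and AKAP11 also stood among the 10 leading genes that were higher. RHOH, a GTPase of blood cells needed for T cell receptor signalling, was at 484 to 631 CPM against 208 to 236 CPM (1.36 ± 0.08, edgeR adjusted p = 2.05e-05). CCDC22 (chromosome X, 43285232 to 43303865) overlaps FOXP3 by 89 bases, so reads of the pair may not be told apart and its difference of 2.33 ± 0.15 is uncertain. ATP1B1, a subunit of the sodium and potassium pump, was higher by 2.46 ± 0.18, AKAP11, which anchors protein kinase A, by 1.77 ± 0.14, and C7H14orf132 by 2.96 ± 0.21.

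The 10 leading genes that were lower included IL7R and SATB1, described above, and 8 others. PDE3B, a phosphodiesterase that degrades cyclic AMP, was at 210 to 428 CPM against 557 to 899 CPM (-1.17 ± 0.08). LPIN1, a phosphatidate phosphatase, was at 339 to 583 CPM against 754 to 1148 CPM (-1.02 ± 0.08). APP, ASAP2, THSD7B, SH3BGRL2 and AGAP1 were lower, at -1.55 ± 0.11, -1.29 ± 0.10, -1.75 ± 0.14, -2.54 ± 0.21 and -1.45 ± 0.13. Over all settings of the fit APP ran from -1.75 to -0.125 and SH3BGRL2 from -2.77 to -0.450. PR39, an antimicrobial peptide of neutrophils, had the smallest p of those that were lower (-3.11 ± 0.18, edgeR adjusted p = 2.23e-05), but 704 of its 746 UMIs in the comparator of 1797 library 2 lay in 1 cell and 1025 of 1911 in that of control library 2. With the richest cell of each gene left out of every sum, PR39 no longer passed the test.

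Markers of other cell types were summed in the gated cells. The 9 neutrophil markers came to 193 and 658 CPM with 1797 and 173 and 1734 CPM with the control peptide. The comparator held 147, 975, 189 and 2117 CPM, and in both cell sets library 2 of each group was above library 1. The 6 erythroid markers came to 2980 CPM in 1797 library 1 and 401 to 666 CPM in the others. The 10 B and plasma cell markers came to 49.8 to 67.1 CPM. Of the gamma-delta markers, BLK (0.64 ± 0.16), SOX13 (0.75 ± 0.17) and GATA3, which also stands among the transcription factors, were called higher than in the comparator. BLK and SOX13 turned to -0.57 and -0.16 when only gated cells with 2 or more FOXP3 UMIs were used, and to -0.66 and -0.22 in those with CD4 and no CD8B.

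The third question was whether the peptide went with other transcript levels inside the regulatory T cells. Of 8186 genes tested, 6 were called at an adjusted p under 0.05 (0.0733%), 3 higher (0.0366%) and 3 lower (0.0366%) with 1797, by edgeR's quasi-likelihood test. At an unadjusted p under 0.05 there were 448 genes (5.47%), and the libraries of the groups lay apart for 2758 genes (33.7%). With the richest cell of each gene left out of every sum, 2 of the 6, DDC and PRELID2, were called. All 6 stayed called with 1 library left out, and the count then rose to 16 and 17 without 1797 library 1 or 2 and to 51 and 89 without control library 1 or 2.

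DDC (chromosome 9, 136496364 to 136571220), the decarboxylase that forms dopamine and serotonin from their amino acid precursors, stood at 106 and 53.9 CPM with 1797 and at 3.53 and 1.59 CPM with the control peptide. It was seen in 42 and 21 cells of the 1797 libraries and in 4 and 2 cells of the control libraries, with at most 13 UMIs in a cell. The log2 difference was 4.85 ± 0.51 (SE, edgeR adjusted p = 0.00708). In the FOXP3-negative CD4 T cells of the same libraries DDC was at 33.6 and 5.01 CPM with 1797 and at 2.71 and 3.53 CPM in the controls, so most of that difference lay in 1 library there.

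PRELID2 (chromosome 2, 147101820 to 147191736), of a family of proteins that carry lipids inside mitochondria, was at 4.25 and 9.65 CPM with 1797 and at 155 and 111 CPM in the controls. It was seen in 4 and 7 cells of the 1797 libraries against 78 and 38 cells of the control libraries. The log2 difference was -4.22 ± 0.39 (edgeR adjusted p = 0.00674). In the comparator it was at 7.81 and 28.6 CPM against 113 and 125 CPM, the same direction with groups apart.

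TIAM2 (chromosome 1, 11648506 to 11897869), an exchange factor for the GTPase Rac, was at 192 and 138 CPM with 1797 and at 37.7 and 27.0 CPM in the controls (2.34 ± 0.28, edgeR adjusted p = 0.0133). Its comparator values, 248 and 104 CPM against 26.7 and 35.9 CPM, also lay apart. SLA-1 (chromosome 7, 22824137 to 22920154), a classical MHC class I heavy chain of the pig, was at 2159 and 2534 CPM with 1797 and at 850 and 722 CPM in the controls (1.59 ± 0.19, edgeR adjusted p = 0.0133). The class I genes of the pig are near-identical and vary between animals, so the counting may split reads among them and this value is uncertain. SLA-1 lay apart in the same direction in the comparator (1881 and 1893 CPM against 732 and 709 CPM) and in B cells (1283 and 1546 CPM against 473 and 501 CPM). With the richest cell of each gene left out, TIAM2 and SLA-1 had adjusted p = 0.0670 and 0.0654 by edgeR.

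IL12RB2 (chromosome 6, 145210251 to 145292399), the IL-12 receptor chain of type 1 helper cells, was at 32.3 and 28.9 CPM with 1797 and at 142 and 162 CPM in the controls (-2.30 ± 0.24, edgeR adjusted p = 0.00708). In control library 2, 131 of its 204 UMIs lay in 1 cell. Without the richest cell of each library it was at 17.9 and 23.3 CPM against 116 and 58.0 CPM, still apart, and its edgeR adjusted p was 0.335. It was also lost, at an edgeR adjusted p of 0.0689, when only gated cells with CD4 and no CD8B were used, as was SLA-1 at 0.0652.

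LOC100152327 (chromosome 14, 48800248 to 49001525) was at 17.0 and 19.3 CPM with 1797 and at 125 and 120 CPM in the controls (-2.74 ± 0.27, edgeR adjusted p = 0.00674). In control library 1, 85 of its 213 UMIs lay in 1 cell, and with the richest cell of each gene left out its edgeR adjusted p was 0.0670. This gene was read far more in B cells, at 1430 and 2128 CPM with 1797 and 3238 and 7102 CPM in the controls, and in neutrophils it was at 90.8 and 169 CPM against 1623 and 1222 CPM. In the comparator it had 37 UMIs in 1797 library 1 and stood at 148 CPM in 1797 library 2, against 79.2 and 123 CPM in the controls. Of the 503 UMIs behind the 148 CPM, 434 lay in 1 cell. Without the richest cell of each library the comparator held 10.2 and 20.3 CPM against 77.9 and 120.0 CPM, apart in the same direction as in regulatory T cells. The part of RNA from other cells in its values was not tested.

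**Figure D5:**
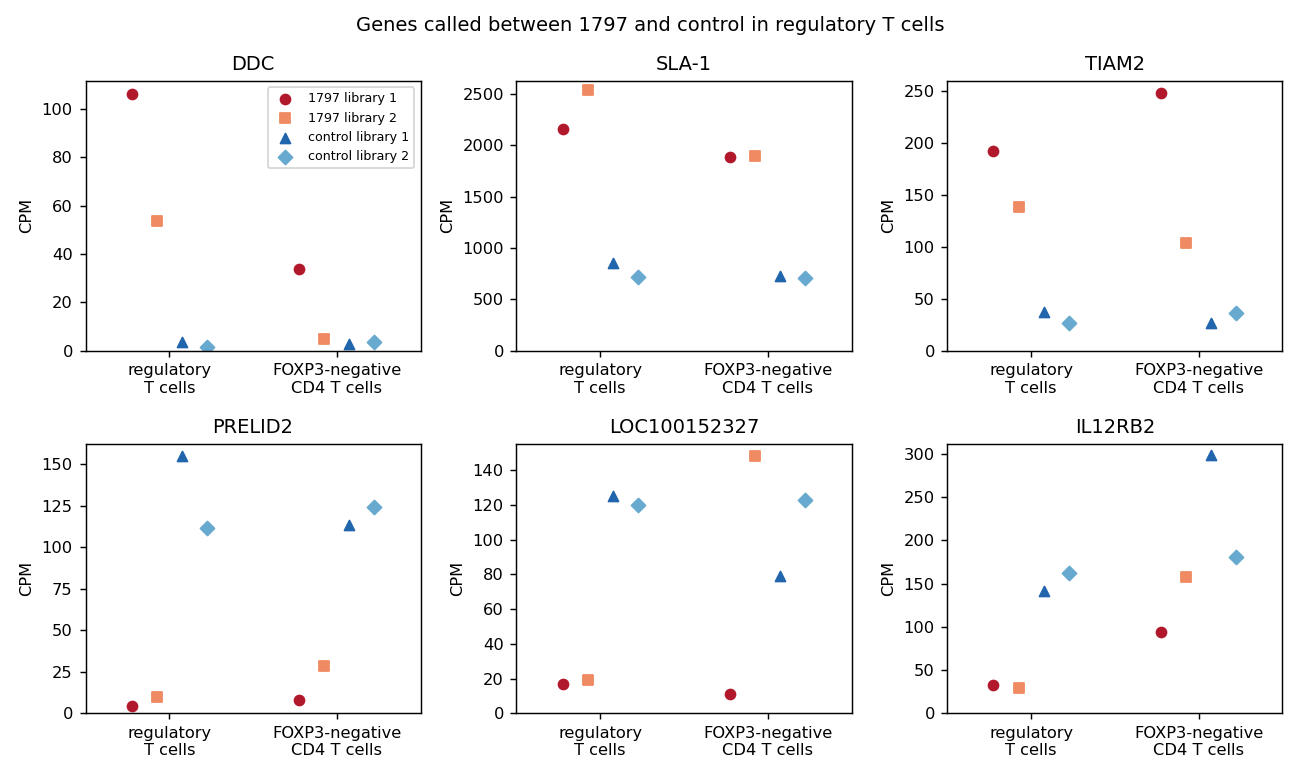
CPM in each library of the 6 genes called between 1797 and control in regulatory T cells, shown for regulatory T cells and for FOXP3-negative CD4 T cells. In regulatory T cells the 1797 and control points lie apart for every gene, and in FOXP3-negative CD4 T cells they lie apart for DDC, SLA-1, TIAM2, PRELID2 and IL12RB2 but overlap for LOC100152327, where 434 of the 503 UMIs of 1797 library 2 lie in 1 cell.

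The same contrast in FOXP3-negative CD4 T cells called 0 of 10444 genes by edgeR (0%), with 298 at an unadjusted p under 0.05 (2.85%). The difference between the 2 peptide effects was tested as an interaction over 10457 genes. It called 0 genes by edgeR (0%) and 0 by DESeq2, with 425 (4.06%) at an unadjusted p under 0.05 by edgeR. None of the 6 differences was therefore shown to be particular to regulatory T cells. The log2 differences in the comparator were 2.62 for DDC, 1.39 for SLA-1, 2.49 for TIAM2, -2.69 for PRELID2, -0.30 for LOC100152327 and -0.92 for IL12RB2. With the richest cell of each gene left out, the comparator difference of LOC100152327 was -2.67 ± 0.39 (edgeR adjusted p = 0.761), and 0 of 9906 genes were called by edgeR, with 325 at an unadjusted p under 0.05.

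IKZF4, LAG3, TNFRSF4 and PRDM1, which were called against the comparator, were not among the calls between 1797 and control. IKZF4 was higher in both 1797 libraries, but its log2 difference of 0.77 ± 0.21 had an edgeR adjusted p of 0.670. LAG3 differed by 1.97 ± 0.38 with the groups apart (edgeR adjusted p = 0.242), and TNFRSF4 and PRDM1 by 0.80 ± 0.23 and 0.69 ± 0.25 without passing. FOXP3, CTLA4 and IL2RA, which the gate used, could not be called by design, and their groups overlapped. In each of the 17 functional lists 0 members were called, where 0.0733% of all tested genes were. At that share lists of this size would hold few or no calls, so no conclusion is drawn.

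Some lists leaned one way without a call. Of the 9 tested cytotoxic genes all 9 had negative differences with 1797, with a median of -1.13, where 4113 of all 8186 tested genes were negative and the overall median was -0.00176. In 5 of the 9 both 1797 libraries lay below both control libraries, against 17.2% of all tested genes. GNLY, the pore-forming granulysin, had 0 and 5 UMIs with 1797 and 162 and 25 with the control peptide, and 43 of the 162 lay in 1 cell. PRF1, perforin, was at 1.70 and 2.41 CPM against 8.83 and 15.9 CPM. The 9 natural killer cell markers, which share members with this list, summed to 48.5 and 76.4 CPM with 1797 and 232 and 154 CPM in the controls, and 4, 3, 1 and 1 of them were at 0. Their part in the cytotoxic values was not tested.

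Of 14 tested NF-kB targets 12 had positive differences with 1797 (median 0.30), and of 24 tested interferon response genes 17 (median 0.24). The groups lay apart for 8 of those 24, all higher with 1797, where 1346 of all 8186 tested genes lay apart that way. Of the NF-kB targets 5 lay apart higher and 1 lower. Of 23 tested immediate early and dissociation genes 19 had positive differences (median 0.24) and 7 lay apart higher, so the lean was not particular to the first 2 lists. Differences were negative for 10 of 11 tested T cell receptor and signalling genes (median -0.18) and 13 of 16 cell cycle genes (median -0.26). The groups lay apart with 1797 lower for 5 of the 11 and 3 of the 16, against 17.2% of all tested genes. OAS2 and ISG20, antiviral enzymes induced by interferon, were at 29.8 and 20.9 against 9.42 and 8.74 CPM and at 57.0 and 69.9 against 34.1 and 27.8 CPM. Of 7 tested MHC class II genes 6 had negative differences (median -0.56), with SLA-DQB1 at 111 and 70.7 CPM against 167 and 150 CPM. For 5 of the 7 the groups lay apart with 1797 lower, against 17.2% of all tested genes. The 10 listed class II genes summed to 635 and 572 CPM with 1797 and 919 and 815 CPM in the controls. In the comparator the sums leaned the same way, at 604 and 421 CPM against 1038 and 696 CPM. The 14 monocyte and macrophage markers come from cells that carry class II. In the gated cells they summed to 287 and 355 CPM with 1797 and 618 and 413 CPM in the controls. Of 7 tested markers 7 had negative differences (median -0.57), 3 with the groups apart (17.2% of all tested genes lay apart lower). MARCO was at 0 in every library. Their part in the class II values was not tested. Among the factors that act on bone cells, CSF1, the macrophage and osteoclast growth factor, was at 33.2 and 31.4 CPM against 19.4 and 12.7 CPM. None of these genes passed the test.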

How the data were processed

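The 4 libraries were made with the 3′ droplet kit of 10x Genomics. The deposited matrices hold raw UMI counts of 20648 genes per barcode. The submitters' processing notes name Cell Ranger 5.0.0 and Sscrofa11.1; per the file headers the software was version 7.0.1. Gene and barcode files hold names only. Counting splits of near-identical or overlapping genes were not given in the sources used here. Coordinates are from a RefSeq table of the same build.

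Cells are not replicates, so counts were summed per library over gated and over comparator cells and tested with edgeR 4.0.16 (TMM, filterByExpr, quasi-likelihood, R 4.3.3). The fit of gated against comparator cells and the interaction had the library as a block. The genes of both gates stayed in the fits and out of all counts of calls. CPM is scaled to the summed UMIs of the cell set. Errors are SDs over libraries or, for log2 differences, SEs. Each SE is the size of the log2 difference divided by the square root of the F statistic of edgeR's quasi-likelihood test. DESeq2 1.42.0 was an alternative. Scrublet ran in scanpy 1.11.5 with an expected rate of 0.1; called doublets were kept and removed in an alternative. Intervals are exact binomial at 95% and, like the summed UMIs, speak of counting error only. The fits were tested on simulated data. Replicates of a group differed by more than counting noise (chi-square per degree of freedom 5.54 and 5.86).

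The text names up to 10 genes in each direction of a comparison that had an adjusted p below 0.05, a log2 difference of at least 1 in size and groups apart (or 4 of 4 libraries the same way), up to 4 members of each list, and a set of fixed genes; 160 higher and 87 lower genes met the first part against the comparator. The cell gate, lists and rules were chosen with earlier results of these data known. Further control samples were not analysed here.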

Additional observations from a re-analysis of the deposited data

How the results depend on the processing

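The 6 genes called between 1797 and control became 11 with DESeq2 (3 higher, 8 lower), 118 without a filter on low counts (46 higher, 72 lower), 2 with the richest cell of each gene left out (1 higher, 1 lower) and 16 to 89 with 1 library left out; the cause was not tested. The labels number the libraries 1 and 2 in both groups. A fit with the replicate number as a block called 71, but deviations of same-numbered libraries had a correlation of 0.00332 over 8193 genes, and nothing else pairs them. All 6 genes kept their direction in every setting. Leaving out the richest cell (in the gated and the comparator cells), gated cells with CD4 and no CD8B, and the CD4 T cell and thinned T cell denominators were chosen after seeing the data.

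The 833 genes called against the comparator became 535 after thinning, 1351 without the filter, 309 without the library block, 1869 against T cells with CTLA4 or IL2RA and no FOXP3, 2511 against all FOXP3-negative T cells and 387 to 730 with 1 library left out (501 without 1797 library 1, 387 without control library 1). The interaction called 65 without the filter, and 0 to 32 with 1 library left out (32 without 1797 library 1, 20 without 1797 library 2). Of 72 genes named against the comparator 63 kept their direction throughout. Some shrank in a setting, to -0.0139 for LEF1, -0.125 for APP, -0.190 for TBX21, -0.106 for TNF, 0.152 for BIRC3 and 0.260 for MCM6. Against T cells with CTLA4 or IL2RA and no FOXP3 the differences were -0.00645 for TNFRSF9, 0.47 for CD5, 0.31 for CCR7, 0.35 for GBP1, -0.42 for TNFSF11, -0.0181 for IL1RL1, -2.82 for BLK and -2.50 for SOX13. Against all FOXP3-negative T cells they were 0.37 for CD5, 0.38 for CCR7, -2.29 for BLK, -1.95 for SOX13 and -0.80 for CD8A, and after thinning -0.0467 for CD8A. With 2 or more FOXP3 UMIs they were -0.57 for BLK and -0.16 for SOX13, and with CD4 and no CD8B -0.66 and -0.22. The S100A9 difference between 1797 and control was -6.55 to 1.62 with 1 library left out, the last without control library 2.

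The difference in share, 1797 minus control, was -0.147 percentage points over kept cells, 0.424 over T cells, 1.52 over CD4 T cells, 0.179 over T cells after thinning, -0.701 over kept cells with no demand for CTLA4 or IL2RA, and -0.330 to 0.0345 with 1 library left out, the last without control library 1. With 109 to 172 cells per library, low genes rest on few cells.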
